A study of Mus musculus with 6 samples.

Results

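The HSP70 and HSP110 chaperones were examined in mouse regulatory T cells (Treg), the lymphocytes that restrain immune responses, with and without the deacetylase HDAC6. The 10 genes were Hspa1a, Hspa1b, Hspa1l, Hspa2, Hspa4, Hspa4l, Hspa8, Hspa9, Hspa14 and Hsph1, and every probe set was taken whose platform annotation named 1 of them and no other gene, which gave 23 of the 22626 probe sets tested. CD4+CD25+ Treg, separated magnetically, came from HDAC6 knock out mice (3 arrays, strain not given in the labels) and from wild type C57BL6 mice (3 arrays). The series' title sets HDAC6 beside HSP90 in the function of Foxp3+ Treg, and the comparison asked what loss of HDAC6 does to transcript levels in these cells. Age, sex and whether an array held RNA of 1 mouse or of a pool are not in the labels, nor is how the knockout allele was made. Values are RMA values on the log2 scale, so a difference of 1 is a doubling, and each probe set was compared only with itself across arrays.

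HSP70 proteins bind exposed hydrophobic stretches of unfolded proteins in a cycle driven by ATP. J-domain proteins (HSP40) deliver the client and stimulate ATP hydrolysis, and HSP110 proteins and BAG proteins release the nucleotide so that the cycle restarts. Hspa8 (HSC70) is made in unstressed cells, whereas Hspa1a and Hspa1b are switched on by the heat shock factor HSF1, which binds repeats of GAA and its complement TTC in promoters. HDAC6 is known to bind ubiquitinated proteins and to deacetylate HSP90, the chaperone that receives clients from HSP70. The members were grouped by textbook knowledge as inducible (Hspa1a, Hspa1b, Hsph1), constitutive (Hspa8, Hspa4, Hspa9, Hspa14) and other (Hspa4l, Hspa2, Hspa1l).

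Promoter sequence is shown for the inducible members, which include the 2 most variable genes of the family, and for Hspa1l, the neighbour of Hspa1a. RefSeq's promoter table (GRCm38.p6) held 8 of the 10 members, all but Hspa8 and Hspa9. Of these, the 250 bases before the annotated start held GAANNTTC or TTCNNGAA, the core of a heat shock element, in 3 genes, Hspa1a, Hspa1b and Hsph1. Of all 32851 promoters listed there, 12.8% held either motif in the same window. Each motif reads the same on both strands, and the 2 can overlap, although they did not here. The longer form with a further repeat, GAANNTTC followed by NNGAA, on either strand, stood in 0.466% of promoters and in none of these. The sequences run 5′ to 3′ on the gene's strand and end at the base before the start, with the motif in capitals. They lie at chr17:34972157-34972406, minus strand, for Hspa1a, at chr17:34959239-34959488, minus strand, for Hspa1b, at chr5:149636337-149636586, minus strand, for the farther upstream of the 2 starts of Hsph1, and at chr17:34972453-34972702, plus strand, for Hspa1l.
Hspa1a: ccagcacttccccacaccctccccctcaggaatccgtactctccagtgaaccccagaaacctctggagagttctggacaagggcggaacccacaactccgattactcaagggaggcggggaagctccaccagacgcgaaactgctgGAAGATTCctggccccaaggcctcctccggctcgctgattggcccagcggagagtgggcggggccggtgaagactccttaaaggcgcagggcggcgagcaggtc
Hspa1b: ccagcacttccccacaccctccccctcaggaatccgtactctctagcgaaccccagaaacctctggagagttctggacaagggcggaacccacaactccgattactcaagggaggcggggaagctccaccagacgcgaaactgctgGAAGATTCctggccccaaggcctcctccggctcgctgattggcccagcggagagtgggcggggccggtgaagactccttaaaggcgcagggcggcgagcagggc
Hsph1: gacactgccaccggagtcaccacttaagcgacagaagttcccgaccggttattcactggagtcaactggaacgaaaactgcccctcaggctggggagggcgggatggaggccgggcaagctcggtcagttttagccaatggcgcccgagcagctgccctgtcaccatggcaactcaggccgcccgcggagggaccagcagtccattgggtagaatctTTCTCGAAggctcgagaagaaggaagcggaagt
Hspa1l: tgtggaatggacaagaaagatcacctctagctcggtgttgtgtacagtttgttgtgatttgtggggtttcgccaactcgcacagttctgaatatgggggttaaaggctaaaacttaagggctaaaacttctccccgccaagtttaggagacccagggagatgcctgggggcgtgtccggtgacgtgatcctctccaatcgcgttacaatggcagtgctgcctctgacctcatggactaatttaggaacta

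The windows of Hspa1a and Hspa1b differed at 3 of 250 bases, and both carried GAANNTTC, which begins 104 bases before the start. The window of Hsph1 carried TTCNNGAA, which begins 33 bases before the start. Hspa1l starts 547 bases from Hspa1a on the opposite strand, and neither motif was in its window. A match of letters describes the sequence and does not show that a factor was bound.

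Hspa1a and Hspa1b were higher on average in knockout Treg, by 4.91-fold and 3.50-fold, but arrays of 1 genotype differed among themselves by as much, and 0 of 23 member probe sets passed the test (limma, Benjamini-Hochberg adjusted p under 0.05 over all probe sets). Across the array 44 probe sets passed, which is 0.194% of those tested. At an unadjusted p under 0.05 the members numbered 0 of 23 and all probe sets 2403 (10.6%). That count of members depended on the arrays used, and was 5 without knockout array 1 (2644 of all probe sets), 4 without wild-type array 2 (1908), 5 without wild-type array 3 (2487), 5 without both arrays numbered 1 (2061) and 0 without any other single array. The genotypes overlapped for every member probe set, while they did not overlap for 17.2% of all probe sets. The knockout mean was higher for 16 of the 23 and for 49.6% of all probe sets, and the median difference was 0.07 for the members and -0.0012 for all probe sets. Several probe sets measure the same gene, so the 23 are not separate observations.

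**Figure D1:**
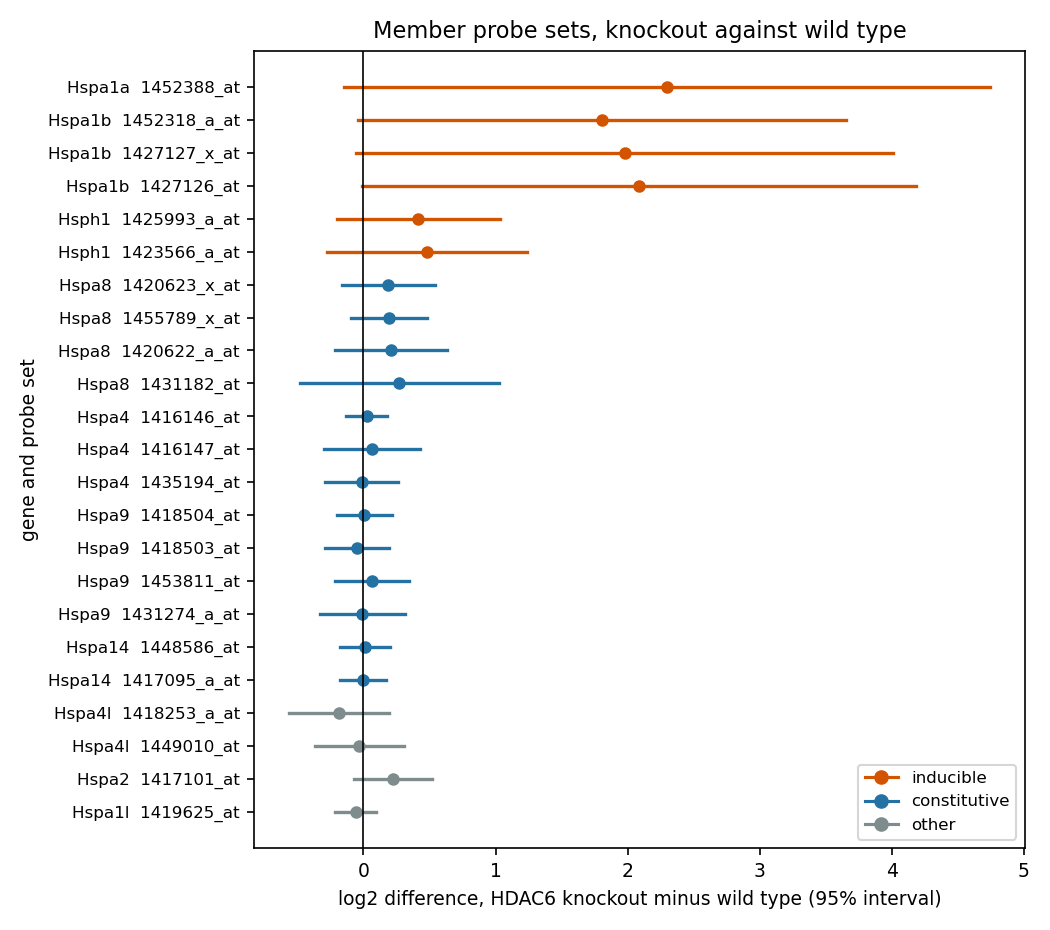
Log2 difference, HDAC6 knockout minus wild type (x axis), for the 23 member probe sets (y axis), with 95% intervals from limma as lines and colours for the inducible, constitutive and other members. The 4 probe sets of Hspa1a and Hspa1b lie between 1.81 and 2.30 with intervals that reach just below 0, and all probe sets of Hspa4, Hspa9 and Hspa14 lie within 0.07 of 0.

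Hspa1a encodes stress-inducible cytosolic HSP70. It had 1 probe set, which read 7.45, 10.28 and 10.06 in the knockout arrays, against 4.91, 7.77 and 8.22 in the wild-type arrays. Knockout arrays 2 and 3 lay above all wild-type arrays, and knockout array 1 lay below wild-type arrays 2 and 3. Wild-type array 1 was lowest, above the lower quartile of the arrays (4.14 to 4.25) and below their median (6.22 to 6.27). Knockout arrays averaged 9.26 (SD 1.57, n = 3) and wild-type arrays 6.97 (SD 1.80, n = 3), a difference of 2.30 (SE 1.04, 95% interval -0.15 to 4.74, limma adjusted p = 0.496). The 6 values spanned 5.37 on the log2 scale, and without detection calls the lowest may be background. The difference was 1.27 without wild-type array 1, 3.20 without knockout array 1, and 2.17 (SE 0.18, limma adjusted p = 0.0799) without both arrays numbered 1, an alternative chosen after seeing the data. Both were the lowest of their genotype for Hspa1a, so the smaller SE follows from that choice.

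Hspa1b encodes a nearly identical protein from a neighbouring gene, and the signal of either gene's probe sets may come from both. Probe set 1452318_a_at, the brightest, had values of 10.47, 12.28 and 12.10 in the knockout arrays, against 8.10, 10.42 and 10.91 in the wild-type arrays. The same pair of knockout arrays stood above all others and the same wild-type array was lowest. Knockout arrays averaged 11.62 (SD 1.0, n = 3) and wild-type arrays 9.81 (SD 1.50, n = 3), a difference of 1.81 (SE 0.78, 95% interval -0.04 to 3.65, limma adjusted p = 0.480). The difference was 0.95 without wild-type array 1 and 1.53 (SE 0.18, limma adjusted p = 0.152) without both arrays numbered 1. Both arrays numbered 1 were again the lowest of their genotype, so the smaller SE follows from leaving them out.

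The other probe sets of Hspa1b followed the brightest one closely. Probe set 1427127_x_at, whose suffix marks probes shared with other transcripts, read 10.30, 12.42 and 11.94 in the knockout arrays, against 7.71, 10.22 and 10.79 in the wild-type arrays. Probe set 1427126_at read 9.48, 11.85 and 11.49 in the knockout arrays, against 7.03, 9.50 and 10.04 in the wild-type arrays. In all 4 probe sets of the gene pair knockout array 2 was highest, knockout array 3 next, wild-type array 3 after them and wild-type array 1 lowest. Knockout array 1 and wild-type array 2 lay between these and changed places among the 4 probe sets. Their differences were 1.98 (SE 0.86) and 2.09 (SE 0.89), with limma adjusted p-values of 0.482 and 0.470. Without wild-type array 1 they were 1.05 and 1.18.

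**Figure D2:**
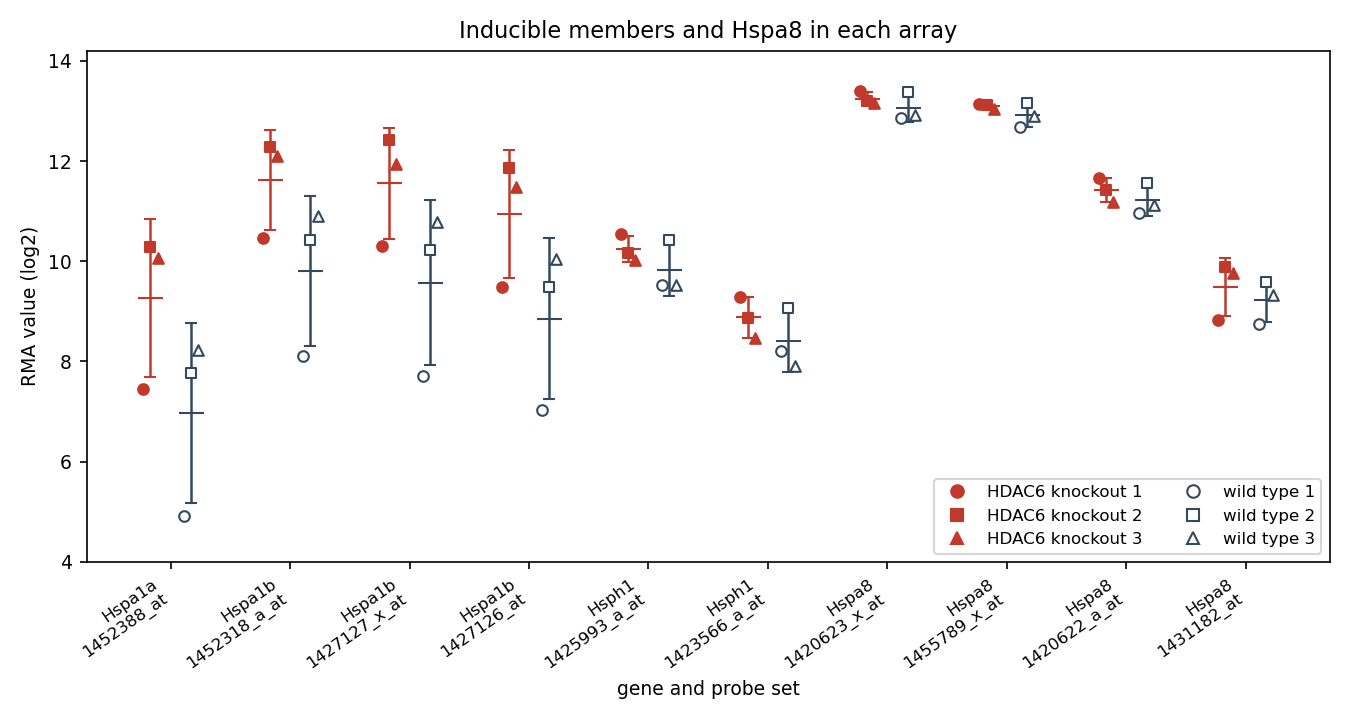
RMA value (log2, y axis) of each array for every probe set of Hspa1a, Hspa1b, Hsph1 and Hspa8 (x axis), with HDAC6 knockout filled and left of wild type, which is open. Horizontal ticks are means and bars are SDs (n = 3), and the marker shape gives the array number. Wild-type array 1 is lowest in the 4 probe sets of Hspa1a and Hspa1b, and knockout arrays 2 and 3 are highest, while knockout array 1 leads in both probe sets of Hsph1.

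The spread of Hspa1a and Hspa1b within a genotype was among the widest on the array. Over all probe sets the median within-genotype SD was 0.12. For Hspa1a it was 1.69, the 12th largest of 22626, and for the 3 probe sets of Hspa1b it was 1.27, 1.40 and 1.45, ranks 23, 19 and 18. For Hsph1 it was 0.42 and 0.51, ranks 368 and 204. The brightest probe set of Hspa4 had a within-genotype SD of 0.04 (rank 21324) and that of Hspa14 one of 0.09 (rank 16026). Not all constitutive probe sets were that tight. Hspa8 probe set 1431182_at had an SD of 0.51 (rank 212), and Hspa4 probe set 1416147_at one of 0.23 (rank 2634).

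**Figure D3:**
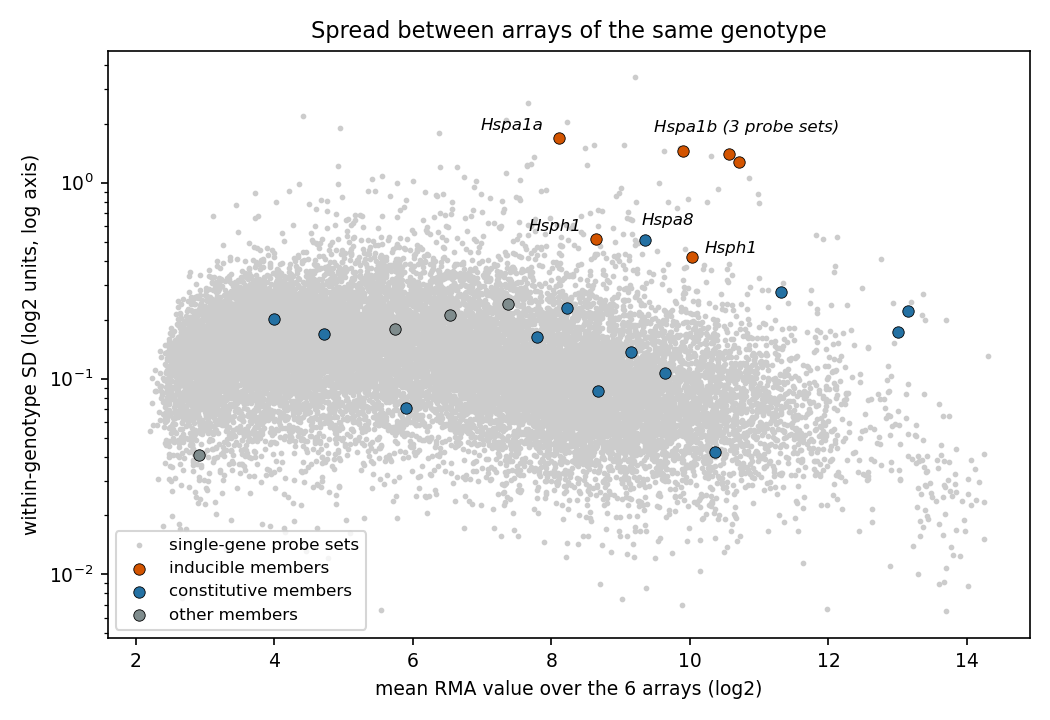
Within-genotype SD (log2 units, y axis on a log scale) against the mean RMA value over the 6 arrays (log2, x axis), with single-gene probe sets in grey and member probe sets in colour by class. The 4 probe sets of Hspa1a and Hspa1b lie between 1.27 and 1.69 and the median probe set at 0.12.

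Hsph1 encodes HSP110 (HSP105), a nucleotide exchange factor for HSP70 that heat induces above a basal level. Its brighter probe set, 1425993_a_at, read 10.54, 10.17 and 10.02 in the knockout arrays, against 9.52, 10.43 and 9.53 in the wild-type arrays. Wild-type array 2 lay among the knockout arrays and the other wild-type arrays below them. The difference was 0.42 (SE 0.26, 95% interval -0.20 to 1.03, limma adjusted p = 0.630), or 1.33-fold. It was 0.72 without wild-type array 2, 0.26 without wild-type array 1, 0.27 without wild-type array 3, 0.27 without knockout array 1, and 0.11 (SE 0.30) without both arrays numbered 1. The dimmer probe set, 1423566_a_at, read 9.29, 8.87 and 8.48 in the knockout arrays, against 8.20, 9.08 and 7.92 in the wild-type arrays, a difference of 0.48 (SE 0.32, limma adjusted p = 0.653).

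The order of the arrays was thus not the same among the inducible members. Knockout array 1, the lowest of the knockout arrays for Hspa1a and Hspa1b, was the highest of all 6 for both probe sets of Hsph1. Wild-type array 1 was the lowest of the 6 for Hspa1a, Hspa1b and the brighter Hsph1 probe set. Over the 3 inducible genes the median deviation from the wild-type mean was 0.66, 2.47 and 2.29 in the knockout arrays, against -1.71, 0.61 and 1.10 in the wild-type arrays. In every array that median was the value of Hspa1b.

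**Figure D4:**
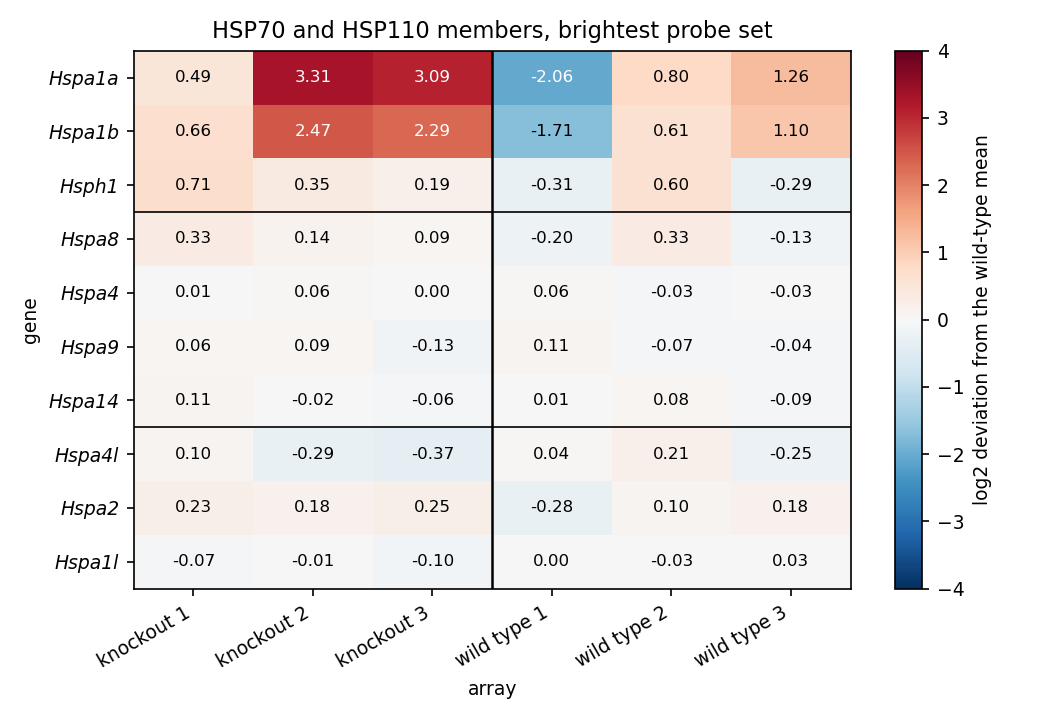
Deviation of each array (x axis) from the wild-type mean, in log2 units given by colour and number, for the brightest probe set of each member (y axis), with horizontal lines between the inducible, constitutive and other members. Hspa1a spans -2.06 to 3.31 and Hspa1b -1.71 to 2.47, while Hspa4 stays between -0.03 and 0.06.

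Hspa8, the constitutive cytosolic HSP70 that also uncoats clathrin vesicles, was near the top of the measured scale. Its brightest probe set, 1420623_x_at, read 13.39, 13.20 and 13.15 in the knockout arrays, against 12.86, 13.39 and 12.93 in the wild-type arrays. The suffix of this probe set, and of Hspa8 probe set 1455789_x_at, marks probes shared with other transcripts. The arrays stood in the same order as for the brighter Hsph1 probe set, with wild-type array 2 among the knockout arrays. The difference was 0.19 (SE 0.15, 95% interval -0.16 to 0.54, limma adjusted p = 0.708), so the data allow from 0.894-fold to 1.45-fold. It was 0.35 without wild-type array 2, 0.09 without wild-type array 1, 0.12 without knockout array 1, 0.12 without wild-type array 3, and 0.02 without both arrays numbered 1. Values this bright can be compressed by saturation.

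Of the other Hspa8 probe sets, 2 were close to the brightest and 1 was not. Probe sets 1455789_x_at and 1420622_a_at differed by 0.19 (SE 0.12) and 0.21 (SE 0.18). Probe set 1431182_at read 8.83, 9.89 and 9.76 in the knockout arrays, against 8.75, 9.59 and 9.32 in the wild-type arrays, a difference of 0.27 (SE 0.32, limma adjusted p = 0.812), or 0.04 without wild-type array 1 and 0.60 without knockout array 1. In it both arrays numbered 1 were lowest and knockout arrays 2 and 3 highest, as for Hspa1a, whereas knockout array 1 was first or second in the other Hspa8 probe sets. Probe sets of 1 gene thus ordered the arrays differently.

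The constitutive members outside Hspa8 differed little between genotypes. Hspa4 (APG-2), a constitutive HSP110 exchange factor, read 10.37, 10.41 and 10.36 in the knockout arrays, against 10.42, 10.33 and 10.33 in the wild-type arrays. The difference was 0.02 (SE 0.07, 95% interval -0.13 to 0.18), an interval that reaches from 0.913-fold to 1.13-fold. Its other probe sets differed by 0.06 (SE 0.15) and -0.01 (SE 0.12).

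Hspa9 (mortalin), the HSP70 of the mitochondrial matrix that drives protein import, read 9.70, 9.72 and 9.50 in the knockout arrays, against 9.74, 9.57 and 9.59 in the wild-type arrays. The difference was 0.01 (SE 0.09, 95% interval -0.20 to 0.22), and the genotypes were interleaved. Its other probe sets differed by -0.05 (SE 0.10), 0.07 (SE 0.12) and -0.01 (SE 0.14), the last of them at the 21.9th percentile of mean level.

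Hspa14, a distant HSP70 that works with a J-domain protein on nascent chains at the ribosome, read 8.78, 8.66 and 8.61 in the knockout arrays, against 8.68, 8.75 and 8.59 in the wild-type arrays. The difference was 0.01 (SE 0.08, 95% interval -0.18 to 0.20), and -0.01 (SE 0.07) for its dimmer probe set. Over the 4 constitutive genes the median difference was 0.02, and over the 3 inducible genes 1.81, which ranged from 0.95 without wild-type array 1 to 2.38 without knockout array 1. The inducible median was the value of Hspa1b itself. Hspa1a was at 2.30 and Hsph1 at 0.42, against 0.19 for the constitutive Hspa8. The genes were few and grouped by prior knowledge, so this contrast is given without a test.

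Hspa4l (APG-1), an HSP110 relative abundant in testis and induced by osmotic stress, was the member with the most negative difference. Its brighter probe set read 7.56, 7.18 and 7.09 in the knockout arrays, against 7.50, 7.67 and 7.22 in the wild-type arrays. In that probe set knockout arrays 2 and 3 were the lowest of the 6, the arrays in which Hspa1a was highest. In the dimmer probe set wild-type array 3 was the lowest. The difference was -0.19 (SE 0.16, 95% interval -0.56 to 0.19, limma adjusted p = 0.736), and -0.03 (SE 0.14) for the dimmer probe set. For the brighter one it was -0.33 without knockout array 1 and -0.08 without wild-type array 2.

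Hspa2 and Hspa1l are the HSP70 genes best known from male germ cells. Hspa2 read 5.87, 5.81 and 5.88 in the knockout arrays, against 5.35, 5.74 and 5.81 in the wild-type arrays. Knockout array 2 and wild-type array 3 tied, wild-type array 1 was lowest, and the difference of 0.22 (SE 0.12, 95% interval -0.07 to 0.52, limma adjusted p = 0.595) was 0.08 without wild-type array 1. Hspa1l read 2.87, 2.94 and 2.85 in the knockout arrays, against 2.95, 2.92 and 2.98 in the wild-type arrays. That probe set lay at the 5.07th percentile of mean level, where no expression can be claimed without detection calls, and its 6 values spanned 0.13 on the log2 scale.

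Partners of HSP70 were compared as lists. Of 13 J-domain protein genes 0 passed, 8 were higher and 5 lower in the knockout, with a median difference of 0.02, and 4 had an unadjusted p under 0.05. Dnajb1, the main inducible J-domain partner of HSP70, read 11.00, 10.90 and 10.78 in the knockout arrays, against 9.68, 10.18 and 10.22 in the wild-type arrays. Unlike for Hspa1a, knockout array 1 was the highest, and the genotypes did not overlap. The difference was 0.86 (SE 0.15, limma adjusted p = 0.106). Dnajb4, a related J-domain protein, differed by 0.64 (SE 0.13), and Dnaja1, a farnesylated partner of HSC70, by 0.51 (SE 0.16).

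Of 11 exchange factors and adaptors 0 passed, 5 were higher and 6 lower, with a median of -0.03 and 1 unadjusted p under 0.05. That 1 was the BAG-family exchange factor Bag3, at 0.60 (SE 0.15, limma adjusted p = 0.218). The exchange factors Hspbp1 and Bag5 differed by -0.13 (SE 0.06) and -0.09 (SE 0.06). Of 12 measured heat shock factors and other HSF1 targets 0 passed, 8 were higher and 4 lower, with a median of 0.06 and 1 unadjusted p under 0.05, that of the small heat shock protein gene Hspb1. Among these, Cacybp differed by 0.24 (SE 0.11) and Hsp90aa1, the inducible HSP90, by 0.22 (SE 0.11). Hsf1 and Hsp90ab1 were not measured by a single-gene probe set. Of 3 measured HSP70 superfamily genes outside the members 0 passed, with the endoplasmic reticulum HSP70 Hspa5 (BiP) at 0.07 (SE 0.07), its exchange factor Hyou1 at -0.02 (SE 0.08) and Hspa12b at 0.00 (SE 0.09).

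Among 380 other genes whose 6 values spanned at least 1, the 5 whose pattern was most like that of Hspa1b by Pearson's r over the 6 arrays were Mmp9 (0.977), Rnf157 (0.971), Smo (0.964), Hspb1 (0.959) and Mcpt4 (0.931). These r describe a ranking over arrays that include both genotypes and carry no test. Hspb1 read 7.02, 7.63 and 7.59 in the knockout arrays, against 6.24, 6.75 and 6.86 in the wild-type arrays. It shared with Hspa1a and Hspa1b the low array 1 in each genotype, but its genotypes did not overlap, and it differed by 0.80 (SE 0.22, limma adjusted p = 0.255).

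Other measures moved with the arrays. The mean level of 21 immediate early genes, which respond fast to stimulation and handling, was 9.14, 9.27 and 9.40 in the knockout arrays, against 8.99, 9.28 and 9.36 in the wild-type arrays. Both arrays numbered 1 were lowest there, as for Hspa1a. Of these genes 0 passed, 14 were higher and 7 lower, and 4 had an unadjusted p under 0.05. The smallest p were those of Egr2 at 0.46 (SE 0.13), Nr4a2 at 0.23 (SE 0.08) and Btg2 at 0.32 (SE 0.12). Unlike the list's mean, Egr2 was highest of all in knockout array 1 (9.14). Within wild type, Egr2 and Nr4a2 were highest in array 1 (8.47 and 5.96), while Btg2 was lowest there (9.74). Both arrays numbered 1 also stood apart on the second principal component of all probe sets, at 16.2 each, against -15.1 to 3.35 for the others. The part of either in the Hspa1a and Hspa1b values was not tested.

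Treg markers were present in all arrays, with Foxp3 at 10.18 to 10.40 in the knockout and 10.21 to 10.33 in wild type, Il2ra at 9.28 to 9.56 in the knockout and 9.32 to 9.64 in wild type, and Cd4 at 9.78 to 10.01 in the knockout and 9.63 to 9.83 in wild type. Of the 8 Treg markers 0 passed and 6 were higher, among them Cd4 (0.21), Ikzf2 (0.20) and Ctla4 (0.16). Hdac6 itself differed by -0.71 (SE 0.11, limma adjusted p = 0.0875), with no overlap between genotypes. Whether its probe set falls inside the deleted stretch is unknown here, so it does not check the labels.

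Plasma cell markers averaged 8.80 to 9.46 in the knockout and 8.33 to 8.61 in wild type, with 6 of 6 higher, 5 at an unadjusted p under 0.05 and 0 past the threshold, led by Jchain (0.58), Xbp1 (0.40) and Tnfrsf17 (1.15). B cell markers averaged 7.11 to 7.70 in the knockout and 7.49 to 7.90 in wild type, with 3 of 6 higher. Ms4a1 was at -1.13, Cd79b at -0.32 and Blk at -0.63, against Pax5 at 0.17, Cd79a at 0.14 and Cd22 at 0.12. Myeloid and dendritic cell markers averaged 5.62 to 5.98 in the knockout and 5.76 to 6.35 in wild type, with 3 of 8 higher. Cd14 was at -0.19, Lyz2 at -0.45 and S100a8 at -0.75, and the higher ones were Flt3 at 0.13, Itgam at 0.07 and Csf1r at 0.02. CD8 T and NK cell markers averaged 6.66 to 6.91 in the knockout and 6.65 to 6.92 in wild type, with 2 of 5 higher, and Cd8b1 was at -0.37, Cd8a at 0.25 and Ncr1 at -0.18. Wild-type array 1, the lowest array for Hspa1a, was also lowest in the plasma cell mean (8.33) and in the CD8 T and NK cell mean (6.65). Other arrays went the other way. Knockout array 2, the highest for Hspa1a, was close to it in the CD8 T and NK cell mean (6.66). Knockout array 1, lower for Hspa1a than wild-type arrays 2 and 3, was above them in the plasma cell mean (9.13). The part of these cells in the Hspa1a and Hspa1b values was not tested. The RNA came from bulk cells, so a change in the number of cells of a type cannot be told apart from a change per cell.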

How the data were processed

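Total RNA of CD4+CD25+ Treg was labelled with biotin for 1-colour arrays, per the labels' protocols. The authors deposited 1 table of log2 values for 6 arrays and 22690 probe sets, made with RMA per the submitters' processing notes, with no version given. The scale was taken as log2 from the values, which carry no detection calls or scan dates. RMA compresses differences at both ends of the scale, and the number of arrays limits the precision (median SE 0.10). After 64 control probe sets were left out, 22626 were tested with limma 3.58.1 in R 4.3.3 (lmFit, eBayes, genotype as the only term, two-sided, Benjamini-Hochberg over all probe sets, threshold 0.05), with no further normalization. The fit was tested on simulated data, with spreads drawn from limma's fit to all probe sets. That does not say what would be recovered at spreads as wide as those of Hspa1a and Hspa1b. Names came from the platform annotation, updated through gene IDs from RefSeq (GRCm38.p6), with 20380 probe sets of 1 gene symbol, 691 of several and 1555 of none.

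A gene's brightest probe set by mean stands for it in lists. The text names every member probe set, up to 3 genes per list with the smallest p, Foxp3, Il2ra, Cd4, Hdac6 and the 5 genes most like Hspa1b. It also names the B cell and the myeloid and dendritic cell markers that were higher in the knockout. The members and lists were chosen with earlier results of these data known. Alternatives tried were leaving out each array, a mean of at least 6, 1 probe set per gene, trend and robust settings in eBayes, centring on array medians, quantile normalization and a replicate block. Leaving out both arrays numbered 1 was added after seeing the data. Python 3.11.15 with matplotlib 3.10.9 drew the figures.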

Additional observations from a re-analysis of the deposited data

How the results depend on the processing

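Of the member probe sets 0 passed under any alternative but 1. With the replicate number as a block, 1 of 23 passed, Hspa1a at 2.30 (SE 0.16, limma adjusted p = 0.0400, 0.0400 to 0.750 over its alternatives). Hspa1b remained at 1.81 (SE 0.22, limma adjusted p = 0.110). With the block, 5 of 23 had an unadjusted p under 0.05, beside 2711 of all 22626 probe sets. The labels do not say that a number marks a shared animal or day, and the deviations of same-numbered arrays correlated at 0.220, -0.0944 and 0.103, so the numbers were not taken as pairs. Knockout array 1 correlated best with wild-type array 1, the highest r of any pair, but knockout arrays 2 and 3 did so with a wild-type array of another number. Over all probe sets the count of 44 became 27 with the block, 147 with trend and robust settings, 21 with 1 probe set per gene and, leaving out 1 array, 5 to 51, with 5 without knockout array 2, 11 without wild-type array 2 and 20 without knockout array 1. It was 0 by limma without both arrays numbered 1, where 2061 had an unadjusted p under 0.05.

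The 4 probe sets of Hspa1a and Hspa1b and both of Hsph1 were higher in the knockout under every alternative run. So were Hspa2, the brightest Hspa4 probe set and all Hspa8 probe sets but 1420622_a_at. Hspa1l and the brighter Hspa4l probe set were lower under every alternative run. The other small differences changed sign. Leaving out 1 array, they ranged from -0.0399 to 0.0507 and -0.0538 to 0.0246 for the probe sets of Hspa14, from -0.0830 to 0.167 and -0.126 to 0.0560 for the dimmer probe sets of Hspa4, from -0.0332 to 0.0745, -0.143 to 0.0227, -0.0308 to 0.169 and -0.130 to 0.135 for those of Hspa9, and from -0.174 to 0.0826 for the dimmer one of Hspa4l. Quantile normalization put Hspa4 probe set 1435194_at at 0.0087. Without both arrays numbered 1, Hspa14 was at -0.0373, Hspa4 probe set 1416147_at at -0.00089 and Hspa8 probe set 1420622_a_at at -0.0427. The cause was not tested.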
